A study of Mus musculus with 4 samples.

Results

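The genes described here encode the folding and quality control machinery of the endoplasmic reticulum (ER) and the sensors of the unfolded protein response, measured in F9 mouse embryonal carcinoma cells with and without a knockdown of Phf19. The 32 members were taken by gene symbol: every probe set of the array listed with exactly one of those symbols was used, which gave 82 of the 45037 probe sets tested and 32 of 18193 genes. All 32 had at least 1 probe set and none was removed by a filter. Each gene was represented by its brightest probe set listed with a single symbol.

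The series compared 2 arrays of F9 cells carrying a short hairpin RNA against Phf19 in the lentiviral vector pLKO.1 (shPhf19) with 2 arrays of F9 cells carrying the vector control (shVector). F9 cells derive from a mouse teratocarcinoma and resemble undifferentiated embryonic cells. All 4 cultures shared lentiviral infection and puromycin selection of stable cells, so both groups differ from unmanipulated F9 cells in those steps. The labels call the arrays biological replicates. The labels do not tell how many hairpins were used, or whether replicates were separate infections, clones or pools, so the p-values measure only the spread between these arrays. Phf19 encodes a Polycomb-like partner of Polycomb repressive complex 2. Its probe set 1427920_at read 6.07 and 6.14 in shVector and 5.08 and 5.17 in shPhf19 (log2), leaving 50.7% of the control signal (limma adjusted p = 0.0108). That call was lost without any 1 array (adjusted p from 0.114 to 0.692). Its probe set 1431857_at did not pass, at -0.06 ± 0.12 (SE, adjusted p = 0.928).

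Markers of the labelled cell type were bright: the mean log2 value of 13 embryonal carcinoma genes such as Pou5f1 and Sox2 lay between 12.32 and 12.42 in the 4 arrays. Of these 13, 10 were above 0 and 3 below. Dnmt3b was called higher, at 0.28 ± 0.05 (SE, limma adjusted p = 0.0482), and 0 were called lower. Nanog was at -0.26 ± 0.05 with no overlap of the arrays (adjusted p = 0.0923). The mean of 23 markers of primitive, parietal and visceral endoderm was 6.80 and 6.86 in shVector and 7.26 in each shPhf19 array. The change was above 0 in 14 of the 23 and below 0 in 9. By the fit 7 of the 23 rose and 1 fell, against 210 and 157 of all 18193 genes. The largest rises were those of Cubn (2.296 on the log2 scale), Dab2 (1.40), Gata6 (1.19) and Pdgfra (1.17). The other 3 that rose encode basement membrane chains, Col4a1 (1.04), Col4a2 (1.03) and Lamb1 (0.91), and the one that fell, Nid1 (-0.50), encodes a further basement membrane protein. As over the whole table, 0 of these calls were left without any 1 array. Endoderm of the parietal kind secretes basement membrane and is rich in ER, so this shift is given beside the results, and its part in them was not tested. The array has no true zero and the file no detection calls, so a marker cannot be called absent.

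Newly made secretory and membrane proteins enter the ER through the Sec61 channel, fold with help of Hsp70 and Hsp90 type chaperones, lectin chaperones and disulfide isomerases, and are sent back to the cytosol for degradation if folding fails. When unfolded proteins accumulate, the membrane sensors Ire1 (gene Ern1), Perk (Eif2ak3) and Atf6 are activated. Ire1 splices the mRNA of Xbp1 into the form that encodes an active transcription factor, and cleaved Atf6 is itself one; both raise transcription of chaperone and degradation genes. Many of those genes carry an ER stress element (ERSE) near their start, which Atf6 binds together with the factor NF-Y.

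A part of the members hold this element near their start. The matches are shown first because the element is the best known sequence feature of such genes. For that reason its share among the members is a description and no independent support for their choice. In RefSeq promoter windows of build GRCm38.p6, from 250 bases before to 50 bases after a gene's start, ERSE was searched on both strands as CCAAT, 9 bases of any kind, then CCACG. A window was given for 27 of the 32 members. ERSE was found in 9 of those 27 genes (33.3%), against 39 of all 32851 windows (0.119%), the members' own windows included. The chaperone and isomerase genes Dnajb9, Dnajc10, Sdf2l1, Pdia3, Pdia4 and P4hb had a window with neither ERSE nor ERSE-II. The related element ERSE-II, ATTGG, 1 base, then CCACG, was found in 2 of the 27 (7.41%), against 12 windows in all (0.0365%). The Xbp1 and Atf6 binding core TGACGTGG was in 0 of the 27 genes and in 0.676% of all windows. The letters CCACG alone, which lies inside both elements, was in 22 of the 27 (81.5%) and in 32.8% of all windows. A window with no match holds no such letters, and nothing follows from that about a factor. The 12 elements are given below as read 5′ to 3′ on the strand where CCAAT or ATTGG comes first, with the fixed letters in capitals and positions counted from the start of the gene as 1.

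Hspa5, chr2:34772025-34772043, plus strand, -65 to -47: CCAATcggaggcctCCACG
Hsp90b1, chr10:86705533-86705551, plus strand, -107 to -89: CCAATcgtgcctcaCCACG
Hsp90b1, chr10:86705638-86705656, minus strand, -212 to -194: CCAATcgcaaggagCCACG
Dnajc3, chr14:118937827-118937845, plus strand, -105 to -87: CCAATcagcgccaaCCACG
Calr, chr8:84847075-84847093, plus strand, -162 to -144: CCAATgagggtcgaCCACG
Canx, chr11:50325800-50325818, minus strand, -145 to -127: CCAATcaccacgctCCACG
Pdia6, chr12:17266491-17266509, plus strand, -98 to -80: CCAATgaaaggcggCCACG
Creld2, chr15:88819520-88819538, minus strand, -126 to -108: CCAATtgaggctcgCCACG
Syvn1, chr19:6046532-6046550, plus strand, -44 to -26: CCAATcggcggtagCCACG
Derl3, chr10:75893242-75893260, minus strand, -156 to -138: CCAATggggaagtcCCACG
Dnajb11 (ERSE-II), chr16:22857852-22857862, plus strand, 8 to 18: ATTGGcCCACG
Herpud1 (ERSE-II), chr8:94386377-94386387, plus strand, -52 to -42: ATTGGgCCACG

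In the results below Herpud1 had the lowest change of the members, at -0.48 log2 units, and Hspa5 was nearly unchanged, at 0.001. The 150 bases before the starts of both genes (GRCm38.p6, plus strand) are therefore shown with the element's fixed letters in capitals.

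Herpud1, chr8:94386279-94386428: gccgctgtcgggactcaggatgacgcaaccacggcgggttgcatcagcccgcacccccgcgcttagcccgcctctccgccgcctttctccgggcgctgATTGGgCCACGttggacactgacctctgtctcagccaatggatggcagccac
Hspa5, chr2:34771940-34772089: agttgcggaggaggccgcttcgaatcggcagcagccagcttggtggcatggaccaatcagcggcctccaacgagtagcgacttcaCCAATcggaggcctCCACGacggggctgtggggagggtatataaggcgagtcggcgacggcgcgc

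For 19 of the 32 members, Hspa5, Hsp90b1 and Calr among them, the 95% interval of the change lay within 0.25 log2 units of 0. That held for 4093 of all 18193 genes. The fit lets the spread vary with brightness, and 0 of the 32 brightest probe sets were dimmer than the table's median. The genes compared thus differ in brightness, which the width of an interval depends on. By probe set it held for 28 of the 82 member probe sets and 7888 of all 45037. In contrast, several genes of ER-associated degradation and the factor gene Xbp1 had lower values without passing the test. The lowest were Herpud1 at 71.7%, Edem1 at 75.2% and Edem2 at 75.8% of the control signal. By limma, with p-values adjusted over the whole table and called below 0.05, 0 of the 82 member probe sets were called in either direction. Of all probe sets 0.582% were called lower and 0.83% higher. At an unadjusted p under 0.05, 18 of the 82 (22%) were lower, against 6.11% of all probe sets, and 0 were higher, against 6.57%. That count of 18 depended on single arrays. Leaving out the first shVector array gave 23 (7.72% of all probe sets), and leaving out the second gave 11 (5.72%). Leaving out the first shPhf19 array gave 7 (2.6%), and leaving out the second gave 6 (2.75%).

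Counted by gene, 5 of the 32 members (15.6%) were lower at an unadjusted p under 0.05, against 7.35% of all genes: Herpud1, Edem1, Edem2, Xbp1 and Sdf2l1. In 14 members (43.8%) both shPhf19 arrays lay below both shVector arrays, which held for 22.2% of all genes. In 0 members did both lie above by the brightest probe set, which held for 21.3% of all genes. Over all member probe sets, both lay below in 36 of the 82 and above in 2. That held for 9472 and 8757 of all 45037 probe sets. The change was below 0 in 23 members (71.9%), against 51% of all genes. The median change was nevertheless small, -0.03 against 0.00 over all genes, because most members lay close to 0. With the mean of all probe sets of each gene in place of its brightest, that median was -0.07, and 30 members were below 0. By probe set 64 of the 82 (78%) were below 0, against 51.8% of all probe sets. Without the second shVector array the median by brightest probe sets was -0.06. As each array was left out, the number of members below 0 by these probe sets ran from 19 to 26. In bulk RNA, fewer cells of a type and less RNA per cell cannot be told apart.

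**Figure D1:**
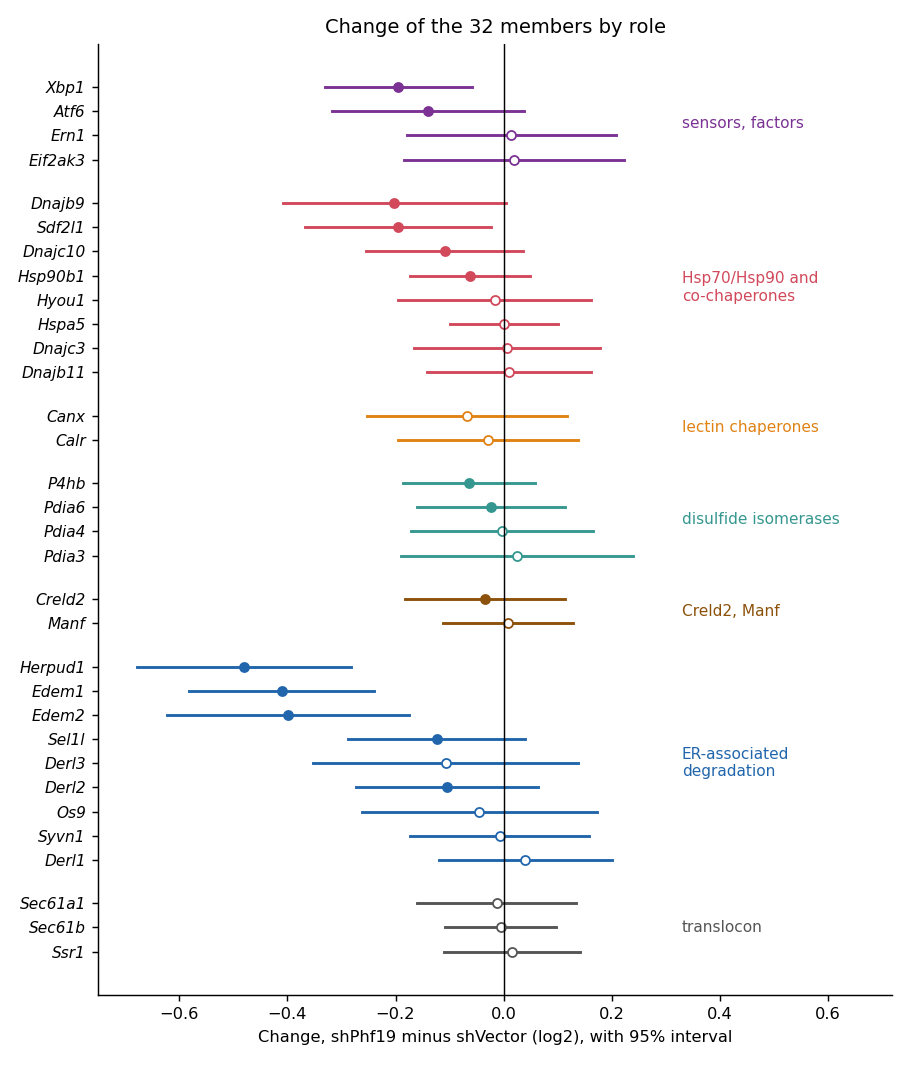
Change of each of the 32 members on the log2 scale (horizontal axis, shPhf19 minus shVector, brightest probe set) with limma's 95% interval, grouped by role; filled points mark the 14 members in which both shPhf19 arrays lay below both shVector arrays. Herpud1, Edem1 and Edem2 sit farthest to the left, between -0.48 and -0.40, and the 3 translocon genes sit between -0.01 and 0.02.

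Among the sensors and transcription factors, Xbp1 was lower by all of its probe sets. Probe set 1437223_s_at of Xbp1 read 11.87 and 11.80 in shVector and 11.67 and 11.60 in shPhf19. Both shPhf19 arrays were below both control arrays, and each group spanned only 0.07. The change was -0.19 ± 0.06 (SE), with a 95% interval from -0.33 to -0.06 (limma adjusted p = 0.212). The other 3 Xbp1 probe sets changed by -0.33 ± 0.13, -0.23 ± 0.08 and -0.18 ± 0.12, and in each of them the arrays of the groups did not overlap. The values are for total Xbp1 signal; whether any probe tells the spliced from the unspliced mRNA was not analysed here.

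Atf6, which encodes the sensor that is cut in the Golgi to release a transcription factor, showed the same order of arrays in all 3 of its probe sets. Its brightest, 1435444_at, read 8.76 and 8.80 in shVector against 8.66 and 8.62 in shPhf19, a change of -0.14 ± 0.07 (SE, limma adjusted p = 0.523). Probe sets 1456021_at and 1453288_at were at -0.19 ± 0.09 and -0.31 ± 0.09. Ern1 and Eif2ak3, the genes of the kinases Ire1 and Perk, overlapped between groups. Ern1 read 8.05 and 7.97 in shVector and 8.03 and 8.02 in shPhf19, and Eif2ak3 read 8.96 and 9.07 against 9.10 and 8.97. Their changes were 0.01 ± 0.08 and 0.02 ± 0.08 (SE). Dimmer probe sets of both genes scattered from -0.32 to 0.09 for Ern1 and from -0.24 to 0.08 for Eif2ak3.

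Hspa5, which encodes BiP, the Hsp70 chaperone of the ER and the standard readout of the unfolded protein response, read 13.27 and 13.24 in shVector and 13.28 and 13.24 in shPhf19. The 4 arrays thus lay within a few hundredths of each other. The change was 0.00 ± 0.04 (SE), and its 95% interval spanned 93.3% to 107% of the control signal. A second probe set, 1427464_s_at, gave 0.01 ± 0.05, and the third, 1447824_x_at, -0.05 ± 0.10.

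The Hsp90 of the ER, Hsp90b1 (Grp94), read 13.05 and 13.00 in shVector and 12.94 and 12.99 in shPhf19. Its arrays did not overlap, but the gap was small, at -0.06 ± 0.05 (SE), with an interval of 88.7% to 103% of control. Its dimmer probe set was at -0.20 ± 0.12 with overlapping arrays. Hyou1, a large Hsp70-like nucleotide exchange factor for BiP, was at -0.02 ± 0.07.

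The J-domain co-chaperones, which deliver substrates to BiP, did not all give the same picture. Dnajb9 (ERdj4), a strongly Xbp1-dependent gene, read 9.67 and 9.87 in shVector and 9.58 and 9.55 in shPhf19, a change of -0.20 ± 0.09 (SE, limma adjusted p = 0.408). The gap of 0.20 between its shVector arrays was as large as the change. Dnajc10 (ERdj5), a reductase that works with the degradation machinery, was at -0.11 ± 0.06, and its other probe sets were at -0.11 ± 0.07 and -0.25 ± 0.09, with no overlap in any of the 3. Dnajb11 (ERdj3) was at 0.01 ± 0.06. Dnajc3 (p58IPK) was at 0.01 ± 0.07 by its brightest probe set and between -0.20 and -0.12 by the other 4.

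Sdf2l1, a luminal partner of BiP and Dnajb11, read 9.45 and 9.54 in shVector and 9.30 and 9.29 in shPhf19. Both shPhf19 arrays were below both controls, and the change was -0.20 ± 0.07 (SE) with an interval from -0.37 to -0.02 (limma adjusted p = 0.327). It had no second probe set.

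**Figure D2:**
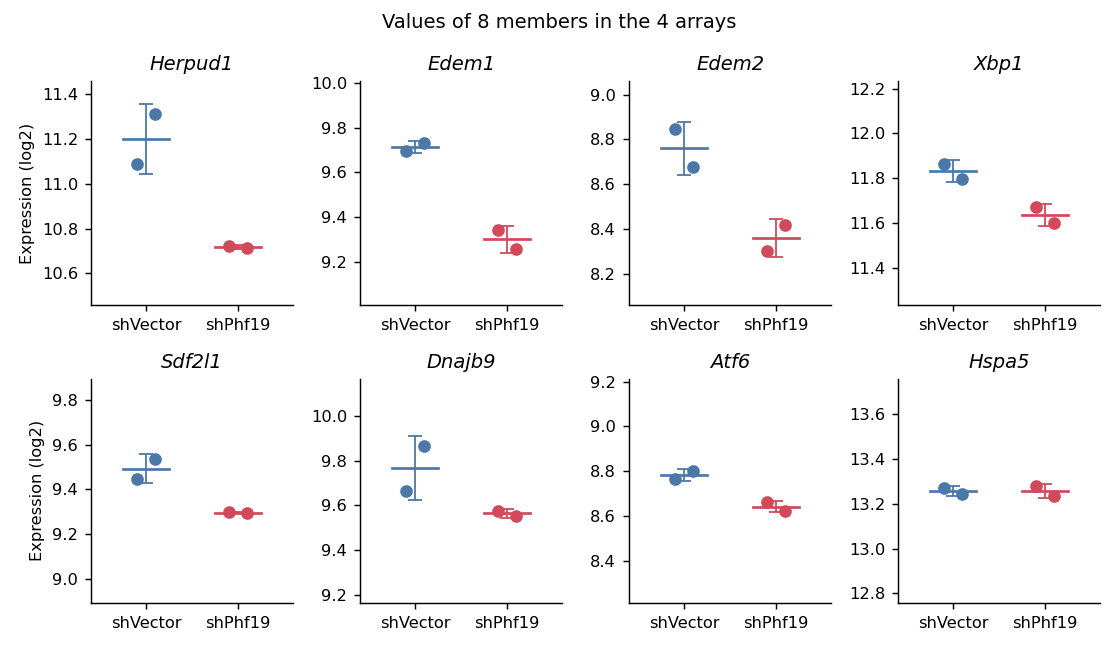
Log2 expression of 8 members in each array; points are arrays, horizontal bars the group means and whiskers the SD over 2 arrays, and every panel spans 1 log2 unit. In the panel of Hspa5 the groups overlap, and in the other 7 both shPhf19 arrays lie below both shVector arrays. The panels thus show 7 of the 14 members without overlap and 1 of the 18 with overlap, so they do not stand for all 32.

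The lectin chaperones of the calnexin cycle, which hold glycoproteins until they fold, overlapped between groups. Calr read 12.64 and 12.48 in shVector and 12.48 and 12.59 in shPhf19, and Canx read 12.43 and 12.64 against 12.52 and 12.43. Their changes were -0.03 ± 0.07 and -0.07 ± 0.08 (SE), each smaller than the gap between the control arrays, which was 0.16 for Calr and 0.21 for Canx.

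The disulfide isomerases, which form and rearrange disulfide bonds, had changes between -0.06 and 0.03 by their brightest probe sets. P4hb, the classical isomerase PDI, read 12.11 and 12.06 in shVector and 12.00 and 12.05 in shPhf19 (-0.06 ± 0.05 SE). Pdia6 read 10.88 in both controls and 10.88 and 10.84 in shPhf19 (-0.02 ± 0.06). Pdia3 (ERp57), which works on glycoproteins, and Pdia4 (ERp72) were at 0.03 ± 0.09 and 0.00 ± 0.07. By these probe sets all 4 had 95% intervals inside 0.25 log2 units of 0, that is from 0.841-fold to 1.19-fold. Their dimmer probe sets were lower in part: that of Pdia3 was at -0.24 ± 0.10 with no overlap of the arrays (limma adjusted p = 0.384), that of Pdia6 at -0.16 ± 0.12 and that of Pdia4 at -0.04 ± 0.12, both with overlap.

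Creld2 and Manf, small luminal or secreted proteins that ER stress induces, gave tight values. Creld2 read 10.32 and 10.28 in shVector and 10.28 and 10.25 in shPhf19 (-0.03 ± 0.06 SE). Manf read 11.66 and 11.68 against 11.67 and 11.68 (0.01 ± 0.05). The translocon genes were equally close: Sec61a1, the pore subunit, was at -0.01 ± 0.06, Sec61b, its small tail-anchored subunit, at -0.01 ± 0.04, and Ssr1, a subunit of the translocon-associated TRAP complex, at 0.02 ± 0.05. Sec61a1 read 12.62 and 12.51 in shVector and 12.50 and 12.60 in shPhf19, and Ssr1 read 11.53 and 11.54 against 11.57 and 11.53. One dimmer probe set of Ssr1, 1441327_a_at, stood apart from the other 3 at -0.37 ± 0.12. The 6 probe sets of Sec61a1 ran from -0.16 to 0.12. In the highest of them, 1455987_at, both shPhf19 arrays lay above both controls.

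By the brightest probe set of each gene, ER-associated degradation had the lowest median change of the 7 roles, -0.11. Over all probe sets of a role, the sensors and transcription factors were lower, at -0.18. By that count the Hsp70 and Hsp90 chaperones with their co-chaperones, and the degradation genes, were both at -0.11. Of the 9 degradation members 8 were below 0, against 51% of all genes. In 5 of the 9 both shPhf19 arrays lay below both controls, against 22.2% of all genes. The same order of arrays held for 4 of the 8 Hsp70 and Hsp90 chaperones and co-chaperones and for 2 of the 4 sensors and factors. With so few genes per role, the difference between roles was not tested. Herpud1, a membrane protein of the retrotranslocation complex that ER stress induces strongly, read 11.09 and 11.31 in shVector and 10.72 and 10.71 in shPhf19. The shPhf19 arrays were nearly identical and lay below both controls. Herpud1 averaged 11.20 ± 0.16 (SD, n = 2) and 10.72 ± 0.01, a change of -0.48 ± 0.08 (SE) with a 95% interval of 62.5% to 82.2% of the control signal. Its limma adjusted p was 0.0541, just above the threshold. The second Herpud1 probe set, 1435626_a_at, gave -0.48 ± 0.09 (adjusted p = 0.0804).

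Edem1, which encodes a mannosidase-like protein that extracts misfolded glycoproteins from the calnexin cycle, read 9.70 and 9.73 in shVector and 9.35 and 9.26 in shPhf19. The replicate gaps were 0.04 and 0.09, well below the distance between the groups. The change was -0.41 ± 0.07 (SE), with an interval of 66.8% to 84.7% of control and a limma adjusted p of 0.0564. The second probe set of Edem1, 1424065_at, was at only -0.06 ± 0.08, so the size rests on 1 probe set. Its paralog Edem2 read 8.84 and 8.68 in shVector and 8.30 and 8.42 in shPhf19. Edem2 thus differed by -0.40 ± 0.09 (SE) at a limma adjusted p of 0.13, and its dim second probe set was at -0.25 ± 0.09.

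The calls of Herpud1 and Edem1 hung on the setting. With quantile normalization Herpud1 passed at a limma adjusted p of 0.0264 and Edem1 at 0.04001. Without the lowest 25% of probe sets they passed at 0.0459 and 0.049, and without the lowest 50% at 0.03995 and 0.0413. With the mean of its probe sets Herpud1 passed at 0.0336, while Edem1 did not. Over all 13 alternatives the adjusted p ranged from 0.0264 to 0.864 for Herpud1 and from 0.04001 to 0.827 for Edem1, and the change stayed below 0 in each.

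The remaining degradation genes lay nearer to 0. Sel1l, the adaptor of the Hrd1 ubiquitin ligase, read 10.59 and 10.48 in shVector and 10.39 and 10.43 in shPhf19 (-0.12 ± 0.07 SE), and all 5 of its probe sets were below 0, from -0.27 to -0.06. Syvn1, which encodes Hrd1 itself, was at -0.01 ± 0.07. The derlins, membrane proteins of the exit route, were at 0.04 ± 0.07 (Derl1), -0.10 ± 0.07 (Derl2) and -0.11 ± 0.10 (Derl3). The 4 probe sets of Derl1 spread from -0.29 to 0.06. The dimmer probe set of Derl2, 1435101_at, was at 0.07 ± 0.09, with both shPhf19 arrays above both controls. Os9, a lectin that hands glycoproteins to Hrd1, was at -0.04 ± 0.09.

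**Figure D3:**
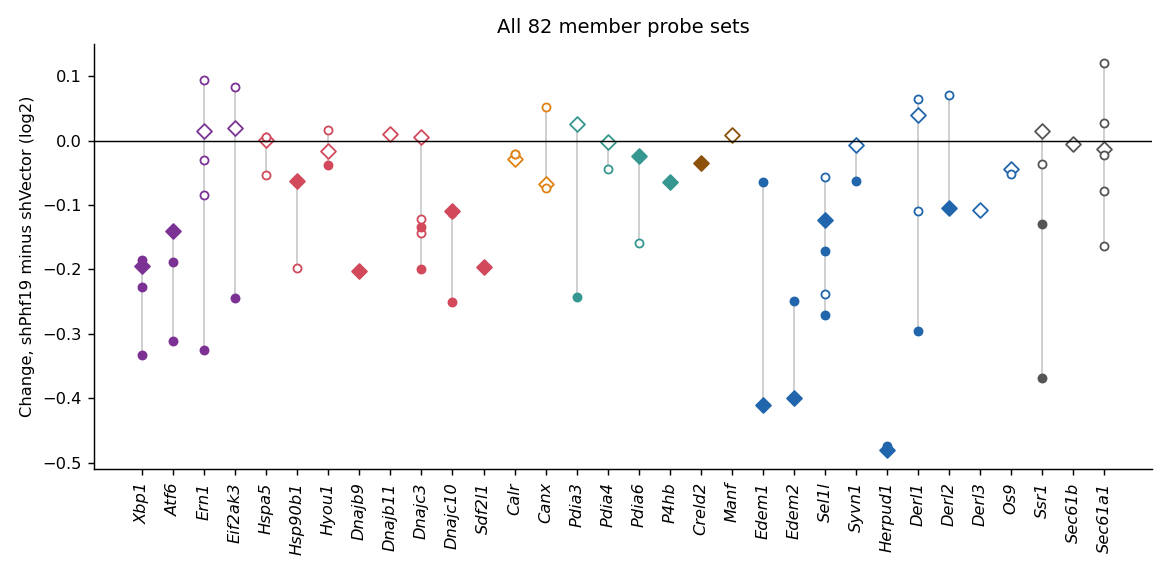
Change of all 82 member probe sets on the log2 scale (vertical axis, shPhf19 minus shVector) by gene; diamonds are the brightest probe set of a gene, circles its others, colours are roles, and filled symbols mark probe sets in which both shPhf19 arrays lay below both shVector arrays. The 4 probe sets of Xbp1 and the 2 of Herpud1 lie below 0 together, whereas those of Edem1 and Ssr1 are far apart.

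Probe sets of one gene shared their sign in some members only. Of the 24 members with more than 1 probe set, 13 had all of them below 0, 0 had all above 0 and 11 had both signs. How often this holds over all genes was not analysed here. The 50 probe sets that do not stand for a gene had a median change of -0.11, and 41 of them were below 0, against 51.8% of all probe sets. Of the 82, 11 were dimmer than the median probe set of the table. By limma 5 of these 11 were lower at an unadjusted p under 0.05, against 6.11% of all probe sets, bright and dim. The file does not tell whether signals that dim were above background.

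The changes were also set beside the stress element. The 9 members with ERSE in their window had changes from -0.11 to 0.01, with a median of -0.03. Of the ERSE-II pair, Dnajb11 was at 0.01 and Herpud1 at -0.48. The 16 members with a window but neither element ran from -0.41 to 0.03, with a median of -0.08; Edem1, Edem2, Xbp1 and Sdf2l1 are among them. Outside the members, 38 genes had either element in a window and 18 of them were measured. Their median change was -0.01, with a range from -0.22 for Krtcap2, a subunit of the oligosaccharyltransferase, to 0.16 for Lrif1. By limma 0 of the 18 were called, and 0 had an unadjusted p under 0.05. None of these differences was tested.

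Other genes of the same compartment were read in the same fit. Over all genes, 51% were below 0 and 7.35% were lower at an unadjusted p under 0.05 by limma. Of 37 measured genes of ER folding outside the members, 1 fell, 0 rose and 25 were below 0 (median -0.06). The one that fell was Tmx4, a membrane-bound thioredoxin-like protein: its probe set 1453120_at read 8.93 and 9.07 in shVector and 8.27 and 8.32 in shPhf19, a change of -0.71 ± 0.08 (SE, limma adjusted p = 0.0178). The other Tmx4 probe sets, both dim, were at -0.18 ± 0.11 and -0.12 ± 0.10. Of 27 further degradation genes none passed in either direction, 0 had an unadjusted p under 0.05, and the median was -0.02. The smallest p-values were those of Fam8a1, a cofactor of Hrd1, at 0.13 ± 0.06 (SE), and Selenos, a derlin partner, at -0.12 ± 0.06. Their range, from -0.12 to 0.15 for Yod1, did not reach the values of Herpud1, Edem1 and Edem2.

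Of 33 further genes of translocation, signal peptide cleavage and N-glycosylation, none passed in limma, 7 were lower and 0 higher at an unadjusted p under 0.05, and 26 were below 0 (median -0.08). Dad1, a subunit of the oligosaccharyltransferase, was at -0.38 ± 0.07 (SE, limma adjusted p = 0.0724), and Spcs3, a subunit of signal peptidase, at -0.26 ± 0.06 (adjusted p = 0.114). Of 20 other regulators of the response none passed, with 2 lower and 3 higher at an unadjusted p under 0.05 (median -0.02). Creb3l1, an ER membrane factor related to Atf6, was at 0.39 ± 0.11 and Map3k5, a kinase downstream of Ire1, at -0.28 ± 0.09.

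The arm of the response that runs through Perk and Atf4, which also answers to amino acid shortage, had a lower median change than the members in the same arrays. Of its 35 measured genes, 8 fell and 0 rose (median -0.20, against -0.03 for the members), with 22 lower at an unadjusted p under 0.05. Without any 1 array, 0 of the 8 calls were left, as over the whole table. The 8 ran from -0.89 ± 0.10 (SE) for the cystine transporter gene Slc7a11 to -0.30 ± 0.05 for Atf4 itself. Cebpb and Atf5, both transcription factor genes, fell by 0.67 and 0.58, and Stc2, which encodes a secreted glycoprotein, fell by 0.57. Gpt2, an alanine aminotransferase gene, fell by 0.54, and all 4 of its probe sets passed. Of the 3 probe sets of Atf4 only the brightest passed, and the others were both at -0.17 (limma adjusted p = 0.292 and 0.595). Stc2 likewise passed by 1 of 3, with the others at -0.44 and -0.27 (adjusted p = 0.0796 and 0.241). The stress-induced factor gene Ddit3 (Chop) did not pass, at 8.59 and 8.02 in shVector and 8.59 and 8.69 in shPhf19; 1 control array was low. The difference between this arm and the members was not tested.

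**Figure D4:**
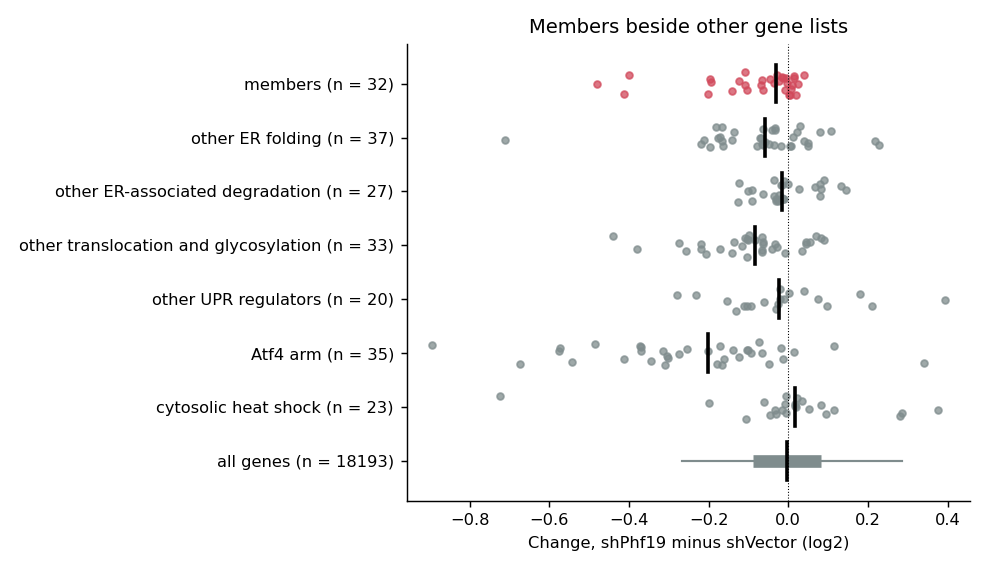
Change on the log2 scale (horizontal axis, shPhf19 minus shVector) of the 32 members and of 6 other gene lists; each point is a gene by its brightest probe set, black ticks are medians, and vertical scatter only separates points. The bottom row gives all 18193 genes as the range from the 5th to the 95th percentile (line) and the middle 50% (bar). The Atf4 arm has the lowest median, -0.20.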

How the data were processed

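RNA was hybridised to Affymetrix whole-genome mouse expression arrays, 2 per group. The authors deposited 1 value per probe set, taken as log2 from the values (2.31 to 14.7, array medians 5.75 to 5.77); the software, the probe summary and any correction for background are not named in the labels, and such summaries can compress changes of dim or very bright probe sets. GEO's platform annotation named the genes; 64 control probe sets were left out. Groups were fitted with limma 3.58.1 in R 4.3.3 (lmFit, eBayes with an intensity trend; 2 residual degrees of freedom, median 6.51 after moderation), two-sided, with Benjamini-Hochberg adjustment over 45037 probe sets. The fit was tested on simulated data. The number of arrays limits the precision. Intervals are 95%.

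The members and lists were chosen with earlier results of these data known, so counts are descriptions without list tests. Values in every array are given for Hspa5, Xbp1 and, per role, the 2 members with the smallest p; other lists by up to 4 passing genes per direction or the 2 smallest p. Gpt2, Ddit3, Yod1, Krtcap2, Lrif1, Ern1, Eif2ak3, Edem2, Hsp90b1 and Sel1l were given in more detail after their values were seen. Outside the marker lists, 9 listed genes matched no probe set and were not analysed here. The main fit was planned without a replicate term, and the calls over the whole table depend on that choice, as given below. Same-numbered arrays deviated with a correlation of -0.197. Promoters came from RefSeq (GRCm38.p6); Derl1, Atf6, Manf, Hyou1 and Sec61a1 had no window there.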

Additional observations from a re-analysis of the deposited data

How the results depend on the processing

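Over 13 alternatives, 14 of the 32 members kept the sign of their change: Xbp1, Atf6, Hsp90b1, Dnajb9, Dnajc10, Sdf2l1, Pdia6, P4hb, Creld2, Edem1, Edem2, Sel1l, Herpud1 and Derl2. These are also the 14 members without overlap between groups, whose sign no single left-out array can turn. The variance trend, the probe sets tested and the block cannot turn the sign of any member. The other 18 changed sign at least once, from values between -0.11 and 0.04, and the cause was not tested. Called lower were 3 member probe sets of 2 members with quantile normalization, 2 of 2 without the lowest 25% and 2 of 2 without the lowest 50% of probe sets, where fewer were tested, and 1 member with the mean of a gene's probe sets. Calls over the whole table rose as well. In the main fit 262 probe sets were called lower, against 364 with quantile normalization, 320 without the lowest 25% and 352 without the lowest 50%. With that mean the members' median was -0.070, and Ern1 was at -0.066, Eif2ak3 -0.047, Hspa5 -0.016, Dnajc3 -0.12, Pdia3 -0.11, Derl1 -0.075 and Ssr1 -0.13. Quantile normalization put Hspa5 at -0.010 and Pdia4 at 0.0013. Without probe sets ending in _s_at or _x_at, Derl1 was at -0.11 and the median of the Atf4 arm at -0.24. Without the variance trend, 151 probe sets were called lower and 229 higher over the whole table.

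With the replicate number as a block, 0 probe sets were called lower and 0 higher over the whole table. Phf19 stayed at -0.98 but did not pass (limma adjusted p = 0.204). Of the member probe sets 11 were lower at an unadjusted p under 0.05. The share of all probe sets at that p was not analysed for this setting. Same-numbered arrays did not deviate together (correlation -0.197). With crossed numbers, a pairing chosen after seeing the data, 259 were called lower and 337 higher, and 0 member probe sets.

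Leaving out 1 array at a time gave from 0 to 0 calls lower and from 0 to 0 higher over the whole table. Medians ranged from -0.065 to -0.030 for the members (-0.065 without shVector replicate 2), from -0.021 to 0.052 for cytosolic heat shock (-0.021 without shVector replicate 1), from -0.080 to -0.039 for other ER folding, from -0.11 to -0.077 for translocation and glycosylation, from -0.065 to 0.0017 for other regulators and from -0.24 to -0.18 for the Atf4 arm. Phf19 ranged from -1.03 to -0.93 by its called probe set and from -0.16 to 0.052 by the other. Among members, the ranges that crossed 0 were -0.025 to 0.055 for Ern1, -0.046 to 0.085 for Eif2ak3, -0.020 to 0.022 for Hspa5, -0.082 to 0.048 for Hyou1, -0.027 to 0.048 for Dnajb11, -0.051 to 0.062 for Dnajc3, -0.11 to 0.052 for Calr, -0.17 to 0.037 for Canx and -0.096 to 0.15 for Pdia3. They were also -0.062 to 0.057 for Pdia4, -0.00075 to 0.017 for Manf, -0.031 to 0.016 for Syvn1, -0.034 to 0.11 for Derl1, -0.22 to 0.0014 for Derl3, -0.11 to 0.021 for Os9, -0.0080 to 0.039 for Ssr1, -0.026 to 0.015 for Sec61b and -0.067 to 0.042 for Sec61a1.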

Other observations

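Chaperones of the cytosol and mitochondria, which answer to heat shock factor and not to the ER sensors, were read as a further set. Of 23 measured genes, 0 were called by limma, 1 was lower and 1 higher at an unadjusted p under 0.05, and the median change was 0.02, which turned to -0.02 without the first shVector array. The small heat shock protein gene Hspb8 was at -0.72 ± 0.14 (SE, limma adjusted p = 0.0807) and its partner Bag3 at 0.28 ± 0.10 (adjusted p = 0.33), with no overlap of the arrays in either. Of 8 measured markers of professional secretory cells, in which ER genes are highest, 0 were called and the median was -0.10; Prdm1, a regulator of plasma cells that also acts in the early embryo, was at -0.56 ± 0.10 (adjusted p = 0.0621) and Sdc1 at 0.23 ± 0.09. Of 12 fibroblast markers, Mmp2 (0.71 ± 0.10) and Loxl1 (0.76 ± 0.11) rose and none fell, but 7 of the 12 were below 0 (median -0.03), and Pdgfrb was at -0.68 ± 0.14 with no overlap of the arrays (adjusted p = 0.0923). Of 10 trophoblast markers, Peg10 rose (0.87 ± 0.11) and Tfap2c fell (-0.85 ± 0.10).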
